A study of Mus musculus with 59 samples.

Results

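The enzymes described here carry out mitochondrial fatty acid beta-oxidation, and the question is how their transcripts moved in the infarcted and the remote part of the mouse left ventricle over 6 times after a myocardial infarction. The members are 9 genes (Acadm, Acadl, Acadvl, Hadha, Hadhb, Cpt1b, Cpt2, Eci1 and Acaa2), chosen with earlier results of these data known. Every probe set annotated to exactly 1 of them was taken. Of the 10833 probe sets with a single gene, 9 belonged to 7 of these genes, while Hadha and Cpt1b were not analysed here. Single probe sets of Acadm, Acadl, Hadhb, Eci1 and Acaa2, and 1 of the 2 of Cpt2, passed the filter on low intensity, which gives 6 tested enzymes. The other Cpt2 probe set (0.90 to 8.8 over all 59 arrays) and both of Acadvl (1.3 to 26.9 on one and 4.0 to 36.4 on the other) did not pass and cannot be read as levels of their genes.

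Beta-oxidation shortens a fatty acid in the mitochondrial matrix by repeated rounds of dehydrogenation, hydration, a second dehydrogenation and thiolytic cleavage, and it is the main source of ATP in the adult heart at rest. Long chains enter as carnitine esters: carnitine palmitoyltransferase 1 (Cpt1b in muscle, Cpt1a in liver and many other tissues) makes the ester at the outer membrane, and Cpt2 turns it back into acyl-CoA at the inner one. Acadvl, Acadl and Acadm are the acyl-CoA dehydrogenases for very long, long and medium chains and catalyse the first step of each round. Hadha and Hadhb are the alpha and beta subunits of the trifunctional protein, which carries out the later steps on long chains, with the thiolase in Hadhb. Acaa2 is the thiolase for shorter chains, and Eci1 moves double bonds so that unsaturated fatty acids can pass through. In the heart these genes are known targets of the nuclear receptors PPAR alpha (Ppara, with an RXR partner) and ERR alpha (Esrra) and of their coactivator PGC-1 alpha (Ppargc1a).

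Hadha and Hadhb lie next to each other on mouse chromosome 5 and point away from each other, so that the promoter windows of the 2 genes (250 bases before to 50 after the start, RefSeq, GRCm38.p6) share 228 bases. Promoters of 7 members were matched in that table by symbol: Acadl, Acadm, Acadvl, Cpt2, Hadha, Hadhb and Eci1. The tested enzyme Acaa2 was not among them, nor was Cpt1b, while Hadha and Acadvl have no tested probe set. The Hadhb window is shown because it also covers most of the Hadha window, the Acadm window because it holds a nuclear receptor motif, and the Eci1 window because Eci1 changed most. All are written 5′ to 3′ on the strand of the gene, and capitals mark the match to AGGTCA, here on the opposite strand.
Hadhb, chr5:30155003-30155302, plus strand: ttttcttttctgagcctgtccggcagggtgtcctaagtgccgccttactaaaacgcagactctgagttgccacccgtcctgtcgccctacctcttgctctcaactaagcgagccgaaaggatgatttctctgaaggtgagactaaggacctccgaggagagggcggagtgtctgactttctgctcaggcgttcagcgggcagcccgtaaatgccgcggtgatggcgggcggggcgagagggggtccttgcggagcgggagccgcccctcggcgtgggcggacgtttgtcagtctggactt
Acadm, chr3:153944594-153944893, minus strand: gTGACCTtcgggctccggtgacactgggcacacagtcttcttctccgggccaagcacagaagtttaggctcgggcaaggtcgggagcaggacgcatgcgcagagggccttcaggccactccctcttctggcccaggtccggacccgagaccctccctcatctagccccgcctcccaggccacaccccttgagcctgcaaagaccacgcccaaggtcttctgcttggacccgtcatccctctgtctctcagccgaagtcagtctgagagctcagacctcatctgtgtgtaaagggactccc
Eci1, chr17:24426433-24426732, plus strand: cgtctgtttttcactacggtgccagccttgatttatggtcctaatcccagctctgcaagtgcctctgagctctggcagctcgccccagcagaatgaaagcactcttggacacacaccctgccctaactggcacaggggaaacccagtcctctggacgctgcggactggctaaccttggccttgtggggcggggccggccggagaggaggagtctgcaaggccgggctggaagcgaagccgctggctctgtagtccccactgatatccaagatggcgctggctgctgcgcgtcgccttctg
The motif AGGTCA, a single nuclear receptor site, was searched on both strands and occurred in the windows of 2 of the 7 members (Acadm and Acadvl), against 16.3% of the 32851 promoters of the table. The direct repeat of 2 such motifs spaced by 1 base (DR1), to which PPAR and RXR bind as a pair, was in 0 of the 7 and in 0.0396% of all promoters. The form TNAAGGTCA, bound by ERR alpha, was in 0 of the 7 and in 1.28% of all. Both longer forms contain AGGTCA, and the search covers only these letters in these windows.

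RNA was measured on 59 Affymetrix arrays, with 1 piece of left ventricle per array. The infarct group (18 arrays) is tissue from below the left anterior descending coronary artery, towards the apex, of mice with a myocardial infarction. The remote group (18 arrays) is tissue from above that artery in infarcted mice, and the sham upper group (18 arrays) is the same upper region of sham-operated mice and serves as control for the other 2 groups, per the labels. A further 5 arrays hold the lower region of sham mice, 1 per time except 8 weeks. The other 3 groups have 3 arrays each at 1 h, 4 h, 24 h, 48 h, 1 week and 8 weeks. The labels give no strain, age or sex, no genotype and no detail of the operation, so the mice of the groups may differ in these. The number in each title is taken here as the mouse, which is named below by its time and number as the titles spell them (1w_670). It links infarct and remote tissue in 17 pairs. Up to 48 h the numbers of sham and infarcted mice lie in separate ranges, so a difference in handling between those sets cannot be told apart from the effect of infarction at these times.

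Over all 59 arrays the 3' to 5' ratio of the Gapdh control probe sets was 0.756 to 0.953 and that of beta-actin 1.16 to 1.76. The median intensity of single arrays was 157 to 214. The lowest Gapdh ratios were those of the infarct arrays of mice 8w_332 and 1w_662 (0.756 each), 1w_670 (0.781) and 8w_326 (0.783). The infarct array of mouse 8w_332 also had the highest median intensity. The lowest correlation between arrays of 1 group was 0.922 across probe sets. Changes are given as log2 differences ± SE of the fit, after 45.6 was added to each intensity, with 3 arrays per group. The SE of a probe set pools its spread over all groups and does not follow that of single groups. For Acadm the SE against sham was 0.21 at 1 h and at 8 weeks, with infarct SDs of 865 and 4157. A probe set is called changed at a limma p below 0.05 after Benjamini-Hochberg adjustment over the 8140 probe sets tested. Where arrays of compared groups are said not to overlap, the share of all probe sets with such a separation was not counted. Mouse 1w_670 and mouse 8w_332 had the lowest infarct values of their time for all 6 enzymes, and the results that rest on them are also given without them. The pieces hold many cell types, and fewer cardiomyocytes and less RNA per cardiomyocyte cannot be told apart in them.

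In sham upper tissue the 6 enzymes were among the brighter probe sets of the arrays and stayed near their level for 8 weeks. Hadhb had a lowest, median and highest intensity of 12308.8, 14591.4 and 17298.7 over the 18 sham upper arrays, and Acaa2 had 11378.6, 12998.9 and 16382.2. Acadm ran from 8045.3 to 13127.1, Eci1 from 6916.2 to 11440.6, Acadl from 5373.5 to 8506.5 and Cpt2 from 5333.1 to 7476.7. These levels are of different probe sets and do not rank the genes. The highest sham array was 1.40 (Cpt2) to 1.65 (Eci1) times the lowest. A moderated F test over the 6 times called 0 of the 6 enzymes in sham upper tissue (adjusted p 0.53 to 0.99), against 19.6% of all probe sets, and 0 of the 6 had an unadjusted p below 0.05 either.

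The lower sham region, the level of the ventricle from which the infarct piece comes, was measured in 5 of the same mice. Eci1 had 6499.4 to 8392.0 there and was below the upper piece in 5 of 5 mice, as was Hadhb (13483.4 to 16820.1). Acadm had 11392.0 to 14211.5, was above the upper piece in 4 of 5 mice and went past the highest sham upper array. Acaa2 was also above in 4 of 5, and Acadl and Cpt2 in 3 of 5. In these 5 mice limma called 0 of 6 enzymes between sham lower and sham upper tissue, and 0% of all probe sets, although 1129 probe sets had an unadjusted p below 0.05. Eci1 was the 1 enzyme with an unadjusted p below 0.05, at -0.26 ± 0.09 in sham lower against sham upper tissue (adjusted p = 0.27).

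**Figure D1:**
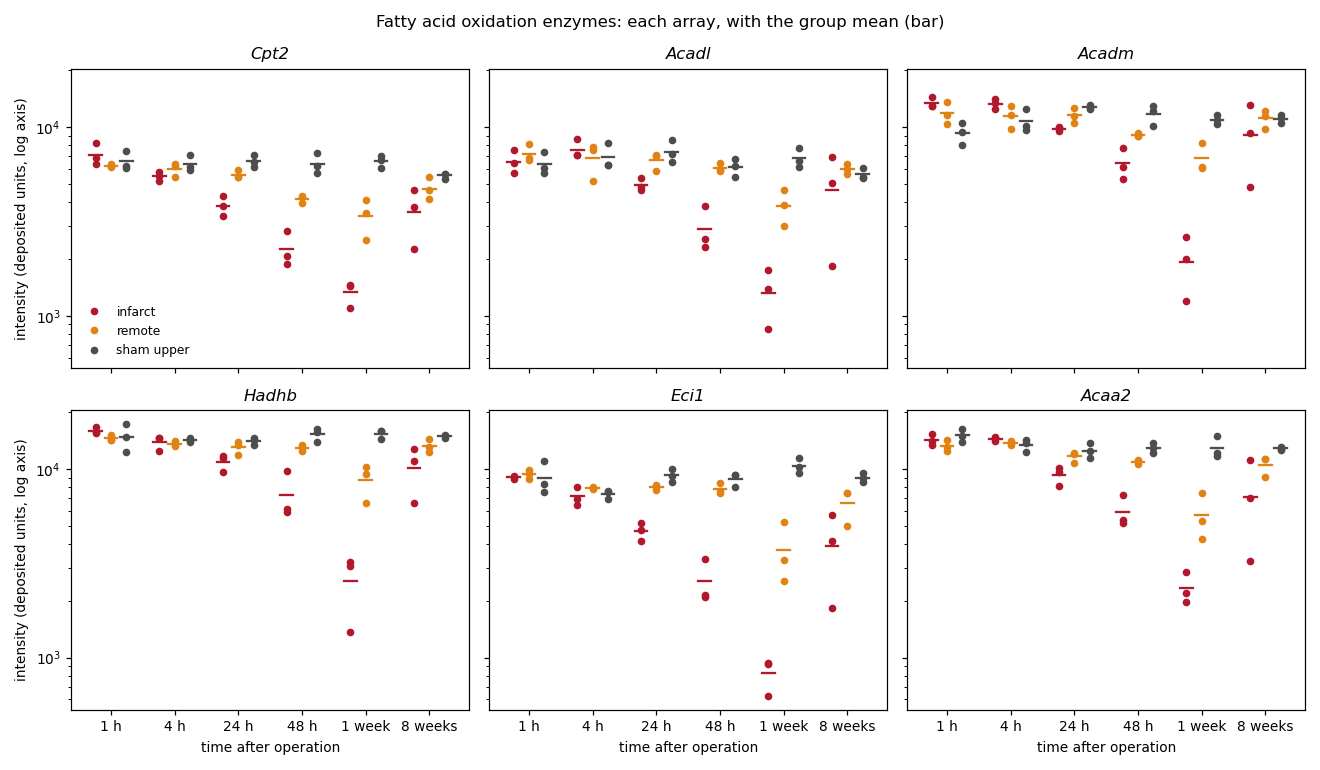
Intensity of the 6 tested enzymes on each infarct, remote and sham upper array (points, log axis) by time, with a bar at the mean of the 3 arrays. Infarct arrays lie below all sham upper arrays for each enzyme at 24 h, 48 h and 1 week, and remote arrays do so at 1 week. The share of all probe sets with such a separation was not counted.

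In the first 4 h no enzyme was called changed in either region. At 1 h the infarct differences from sham upper tissue ran from -0.08 (Acaa2) to 0.53 ± 0.21 (Acadm), with 0 of 6 called (adjusted p 0.12 to 0.96) against 6.34% of all probe sets. Acadm had 14459.7, 12983.0 and 12939.2 in infarct tissue at 1 h, against 9449.4, 8045.3 and 10540.8 in sham upper tissue. These 2 sets of 3 arrays do not overlap, and the lower region of sham mouse 1h_514, at 13892.6, lies within the infarct range. At 4 h the infarct differences were -0.22 (Cpt2) to 0.32 (Acadm), again with 0 called (adjusted p 0.37 or more) against 11.3% of all. In the remote region 0 of 6 were called at 1 h (7.33% of all probe sets) and 0 at 4 h (1.61%), with differences between -0.18 and 0.35. Infarct and remote tissue did not differ for any enzyme past the threshold at 1 h (0 called, 4.57% of all) or at 4 h (0 called, 1.27% of all). Without adjustment, limma put 1 enzyme (Acadm in infarct tissue at 1 h) below 0.05 among these 6 comparisons.

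At 24 h 2 of the 6 enzymes passed the test in infarct tissue. All 6 were lower on each of the 3 infarct arrays than on each sham upper array, a separation not counted over all probe sets. Eci1 had 4134.6, 4733.3 and 5180.3 in infarct tissue, against 8571.8, 9161.2 and 10010.9 in sham upper tissue, a difference of -0.98 ± 0.22 (adjusted p = 0.00044). Cpt2 had 3389.0, 3829.0 and 4301.6 in infarct tissue and 7105.2, 6550.8 and 6163.4 in sham upper tissue, and it fell by 0.78 ± 0.17 on the log2 scale (adjusted p = 0.00021). Both groups are tight, and the infarct means were 50.6% (Eci1) and 58.1% (Cpt2) of the sham means. The other 4 enzymes had differences of -0.37 (Hadhb) to -0.59 (Acadl), with an adjusted p of 0.065 to 0.14. Lower calls at this time covered 22.4% of all probe sets, so 2 of 6 is not far from that background. Set against the lower region of the 1 sham mouse measured at 24 h, 1 of the 6 was called (the call of Eci1 ended, adjusted p = 0.081).

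At 48 h all 6 enzymes fell in infarct tissue, where 24.8% of all probe sets were lower. Cpt2, the inner carnitine enzyme, had 1886.7, 2064.0 and 2819.9 in infarct tissue, against 7258.7, 5682.3 and 6240.8 in sham upper tissue (-1.50 ± 0.17, adjusted p = 1.0e-09). Among the dehydrogenases, Acadl had 2327.0, 2545.6 and 3806.4 in infarct and 5433.3, 6190.7 and 6804.2 in sham upper tissue (-1.10 ± 0.26), and Acadm had the smallest change of the 6 (-0.88 ± 0.21, adjusted p = 0.00047). Hadhb, the thiolase subunit of the trifunctional protein, averaged 7274 ± 2143 in infarct and 15248 ± 1289 in sham upper tissue (SD, n = 3 each). Eci1 again had the largest change: it averaged 2532 ± 711 in infarct tissue and 8897 ± 763 in sham upper tissue, a difference of -1.82 ± 0.22 (adjusted p = 7.7e-09). Acaa2 differed by -1.13 ± 0.21. Mouse 48h_355 had the highest infarct value of each of the 6 enzymes at this time, and it still lay below every sham upper array.

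At 1 week the fall in infarct tissue was deepest, with all 6 enzymes called at an adjusted p of 1.6e-10 or less, where 24.3% of all probe sets were lower. Eci1 had 927.9, 935.6 and 624.9 in infarct tissue, against 11440.6, 10276.7 and 9503.2 in sham upper tissue, which leaves 7.97% of the sham mean (-3.60 ± 0.22). Hadhb had 3213.7, 3061.4 and 1360.2 in infarct and 15858.9, 15969.3 and 14330.9 in sham upper tissue (-2.67 ± 0.20). Acadm had 2611.9, 1989.2 and 1201.8 in infarct and 11601.5, 10898.4 and 10327.0 in sham upper tissue (-2.54 ± 0.21). The groups are far apart for all of them, and mouse 1w_670 has the lowest infarct value of each of the 6. Acaa2, the last enzyme of the round, had 2834.8, 2199.6 and 1969.4 in infarct tissue and 14952.5, 12150.5 and 11709.4 in sham upper tissue (-2.46 ± 0.21). Acadl had 1745.0, 1389.3 and 849.1 in infarct and 7782.9, 6614.3 and 6115.2 in sham upper tissue (-2.38 ± 0.26). Cpt2 had 1456.2, 1437.3 and 1093.8 in infarct and 6721.1, 7063.6 and 6077.6 in sham upper tissue (-2.29 ± 0.17), which leaves 20.1% of the sham mean. The median of all probe sets was itself 0.11 higher in this comparison (-0.08 after quantile normalization), and the 6 calls hold under either scaling.

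At 8 weeks the infarct tissue lay closer to sham, and its 3 mice spread widely. Acadm had 13084.2, 9337.9 and 4784.1 in infarct tissue of mice 8w_311, 8w_326 and 8w_332, against 10449.2, 11653.3 and 11137.9 in sham upper tissue. The infarct range spans that of sham, and the difference of -0.40 ± 0.21 was not called (adjusted p = 0.17), nor was that of Acadl (-0.48 ± 0.26, adjusted p = 0.19). The other 4 enzymes were called lower, against 8.88% of all probe sets. Eci1 had 5668.9, 4138.4 and 1837.1 in infarct tissue and 8493.2, 8920.5 and 9480.6 in sham upper tissue (-1.34 ± 0.22, adjusted p = 5.4e-05). Acaa2 had 11107.6, 7031.8 and 3243.8 in infarct and 12593.0, 13149.7 and 12765.1 in sham upper tissue (-1.01 ± 0.21, adjusted p = 0.00065). For both, all infarct arrays lie below all sham arrays, as they do for Cpt2 (-0.70 ± 0.17) and Hadhb (-0.61 ± 0.20). Mouse 8w_332 was lowest and mouse 8w_311 highest for each enzyme. Without mouse 8w_332, 2 of the 6 were called (the calls of Cpt2 and Hadhb ended, adjusted p = 0.090 and 0.29), and 0 were called when the fit held these 2 groups alone. The call of Hadhb also ended without any 1 of the 3 sham upper arrays and after quantile normalization.

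Outside the infarct the calls came later, and the differences from sham upper tissue were smaller from 24 h on. In the remote region at 24 h, 0 of 6 were called (3.99% of all probe sets), with differences of -0.09 (Acaa2) to -0.23 (Cpt2). At 48 h all 6 differences were negative, and Cpt2 was the 1 of 6 called, where 4.07% of all probe sets were lower. Cpt2 had 4318.7, 4267.3 and 3935.9 in remote tissue, against 7258.7, 5682.3 and 6240.8 in sham upper tissue (-0.60 ± 0.17, adjusted p = 0.018). Each remote array lies below each sham array for Cpt2. The same holds for Acadm (-0.36), Acaa2 (-0.24) and Hadhb (-0.23), which were not called, while the arrays overlap for Eci1 and Acadl. How common such a separation is among all probe sets was not counted. The call of Cpt2 ended without sham upper mouse 48h_518 or without remote mouse 48h_355 (adjusted p = 0.094 and 0.091), and also when the fit held these 2 groups alone.

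At 1 week all 6 enzymes fell in the remote region too, against 16.1% of all probe sets. Eci1 had 5255.7, 3305.9 and 2545.7 in remote tissue of mice 1w_662, 1w_663 and 1w_670, against 11440.6, 10276.7 and 9503.2 in sham upper tissue (-1.54 ± 0.22, adjusted p = 8.8e-07). Acaa2 had 7444.3, 5321.3 and 4253.0 in remote and 14952.5, 12150.5 and 11709.4 in sham upper tissue (-1.21 ± 0.21, adjusted p = 1.4e-05). Cpt2 had 4102.8, 3506.6 and 2520.3 in remote and 6721.1, 7063.6 and 6077.6 in sham upper tissue (-0.99 ± 0.17, adjusted p = 1.1e-05). No remote array reaches a sham array for any of the 6, a separation not counted over all probe sets. Mouse 1w_670 is the lowest remote array of each. Acadl averaged 3832 ± 836 in remote and 6837.5 ± 856 in sham upper tissue (-0.84 ± 0.26, adjusted p = 0.0087). Hadhb averaged 8765 ± 1953 in remote and 15386 ± 916 in sham upper tissue (-0.83 ± 0.20, adjusted p = 0.00090). Acadm averaged 6824 ± 1222 in remote and 10942 ± 638 in sham upper tissue (SD, n = 3 each), the smallest change at -0.69 ± 0.21 (adjusted p = 0.0077). The call of Acadl ended without mouse 1w_670 (adjusted p = 0.056), that of Acadm ended under quantile normalization (adjusted p = 0.054), and those of Acadl and Hadhb ended against the 1 sham lower array of that time. At 8 weeks 0 of 6 were called in the remote region, where 0.086% of all probe sets were called by limma. Eci1 was the 1 enzyme with an unadjusted p below 0.05 there (-0.45 ± 0.22, adjusted p = 0.61), with 7420.8, 7483.3 and 5013.9 in remote tissue.

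Infarct and remote tissue, mostly of the same mice, were also set against each other. At 24 h Eci1 (-0.78 ± 0.21, adjusted p = 0.0044) and Cpt2 (-0.55 ± 0.16, adjusted p = 0.0069) were lower in infarct than in remote tissue, 2 of 6 against 16.3% of all probe sets. Without infarct mouse 24h_360 the call of Cpt2 ended (adjusted p = 0.053). At 48 h all 6 were lower in infarct tissue, against 22.5% of all, from -0.52 ± 0.19 for Acadm to -1.65 ± 0.21 for Eci1. The call of Acadm ended without the infarct or the remote array of mouse 48h_351 or of mouse 48h_354, and after quantile normalization. At 1 week all 6 were lower again, against 16.9% of all, from -1.24 ± 0.19 for Acaa2 to -2.06 ± 0.21 for Eci1. No infarct array reached a remote array of its time for any of the 6 at 24 h, 48 h or 1 week, which was not counted over all probe sets. Acadm showed the gap plainly at 1 week, with 2611.9, 1989.2 and 1201.8 in infarct tissue and 8234.0, 6153.3 and 6083.5 in remote tissue of the same 3 mice. At 8 weeks the ranges overlapped for every enzyme, and Eci1 (-0.89 ± 0.21, adjusted p = 0.012) and Acaa2 (-0.72 ± 0.19, adjusted p = 0.021) were called, 2 of 6 against 2.17% of all. This count was 0 without the infarct array of mouse 8w_332 or the remote array of mouse 8w_326, 1 without the remote array of mouse 8w_311 or of mouse 8w_332, and 6 without the infarct array of mouse 8w_311.

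**Figure D2:**
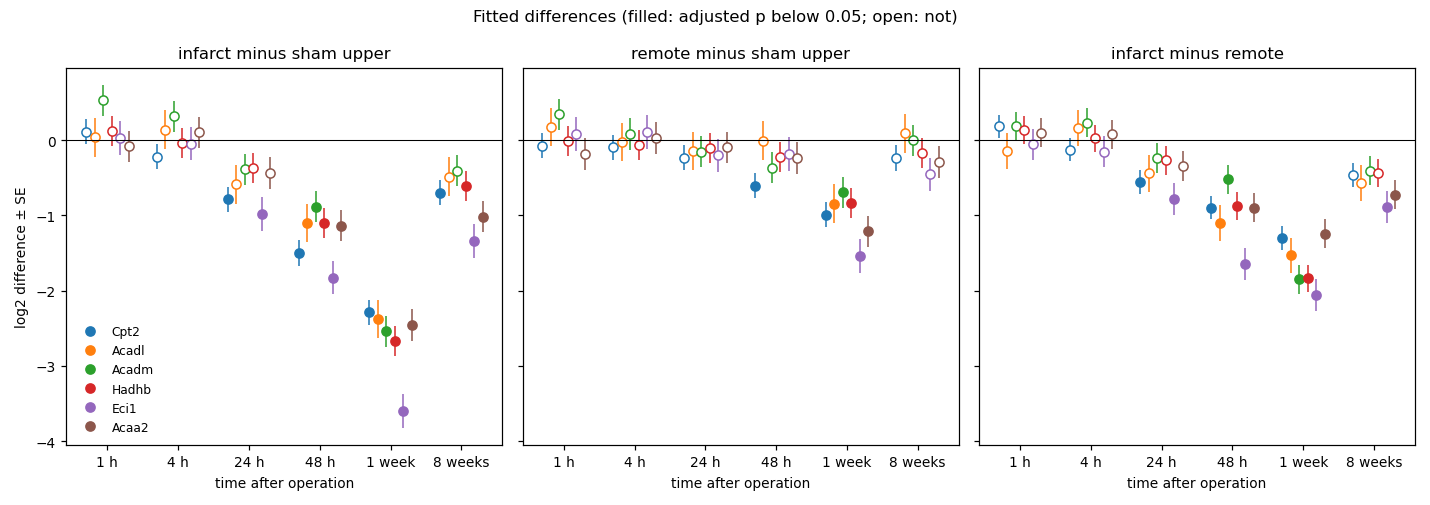
Fitted log2 difference ± SE of each enzyme by time, for infarct minus sham upper, remote minus sham upper and infarct minus remote (3 arrays per group), with filled points at an adjusted p below 0.05. The infarct differences reach -2.29 to -3.60 at 1 week and the remote ones -0.69 to -1.54.

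The size of the infarct effect differed between times for all 6 enzymes by an F test, as it did for 62.6% of all probe sets, and all 6 differed from sham at some time (75.8% of all). Between 4 h and 24 h the effect on Eci1 grew more negative (1 of 6, against 7.64% of all probe sets), and between 24 h and 48 h that on Cpt2 did (1 of 6, 3.82%). Both calls lie close to the threshold (adjusted p = 0.037 and 0.049) and they ended when 9 (Eci1) and 10 (Cpt2) of the 12 arrays concerned were left out one at a time. Between 48 h and 1 week the effect on all 6 grew more negative, by -0.79 ± 0.24 (Cpt2) to -1.77 ± 0.32 (Eci1), where 10.6% of all probe sets did. Between 1 week and 8 weeks the effect on all 6 moved back, by 1.44 ± 0.29 (Acaa2) to 2.26 ± 0.32 (Eci1), where 15.3% of all did. The infarct arrays of 8 weeks spread more than this pooled SE shows, and fits of single groups were not run for the steps. Between 1 h and 4 h 0 of 6 changed (1.14% of all). Without infarct mouse 1w_670 the calls of Acadl and Cpt2 between 48 h and 1 week ended (adjusted p = 0.052 and 0.051), and without infarct mouse 48h_355 that of Cpt2 did.

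In the remote region 5 of the 6 enzymes differed from sham at some time by an F test (39.4% of all probe sets), the exception being Acadl (adjusted p = 0.17). The remote effect differed between times for Eci1, Acaa2 and Cpt2, 3 of 6 against 25.4% of all. Between 48 h and 1 week it grew more negative for Eci1 and Acaa2 (2 of 6, 4.18% of all), and between 1 week and 8 weeks it moved back for Eci1, Acaa2 and Cpt2 (3 of 6, 6.9% of all). Without remote mouse 1w_670 the count was 1 (Eci1) for the step to 1 week and 0 for the step to 8 weeks. The count for the step to 1 week was also 1 without sham upper mouse 1w_651 or 48h_519, and that for the step to 8 weeks was 1 without sham upper mouse 1w_651 or 8w_329. No enzyme was called at the earlier steps, where 0.0491% (1 h to 4 h), 0.172% (4 h to 24 h) and 0% (24 h to 48 h) of all probe sets were called by limma. At the last of these steps 637 probe sets had an unadjusted p below 0.05.

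The enzymes are abundant in cardiomyocytes, and the 12 measured cardiomyocyte markers moved with them in infarct tissue. At 1 week 11 of the 12 fell there, with a median log2 difference of -2.31, beside -2.50 for the 6 enzymes and 0.11 for all probe sets. Their summed intensity was 23507 to 77161 in infarct tissue and 201428 to 226123 in sham upper tissue, and no marker had a mean at 0, with Tcap (145 in infarct and 214 in sham upper tissue) and Ckm (232 and 3330) lowest. Myh6, the main myosin heavy chain of the adult mouse ventricle, averaged 5703 ± 4453 in infarct tissue and 26608 ± 1394 in sham upper tissue. In mouse 1w_670 the enzymes had a median of -3.04 and the markers a lower one of -3.58, while in mice 1w_662 and 1w_663 the enzymes (-2.16 and -2.37) lay below the markers (-1.58 and -1.75). At 48 h 10 of the 12 markers fell, with a median of -0.93 beside -1.12 for the enzymes. Of all probe sets 24.8% were lower at 48 h and 24.3% at 1 week. How much of the enzymes' fall in infarct tissue goes with the markers was not tested.

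In the remote region at 1 week all 6 enzymes fell (median -0.92), and 2 of the 12 markers did (median -0.42), a share close to the 16.1% of all probe sets that were lower. The 2 were Ckm, the muscle creatine kinase (-1.37), and Ryr2, the calcium release channel (-0.81), both named after their values were seen. Myh6 averaged 19007 ± 2871 in remote tissue and 26608 ± 1394 in sham upper tissue, a difference that was not called (-0.49 ± 0.41, adjusted p = 0.38). Each remote Myh6 array (16398.4 to 22082.8) nevertheless lay below each sham upper array (25101.7 to 27851.2). The summed intensity of the 12 markers was also lower, at 139262 to 178615 in remote and 201428 to 226123 in sham upper tissue. The SE was 0.17 to 0.26 for the 6 enzymes, against 0.41 for Myh6, and each pools the spread over all groups. The 2 counts of calls therefore do not compare the lists at equal precision, and most markers cannot be said to have held. By array, the enzyme medians were -0.63, -0.86 and -1.30 in mice 1w_662, 1w_663 and 1w_670, and the marker medians were -0.29, -0.32 and -0.65. In each of the 3 mice the enzymes lie lower, and both lists are lowest in mouse 1w_670. At 24 h in infarct tissue the enzyme medians were -0.61, -0.55 and -0.41 and the marker medians -0.40, -0.24 and -0.33 in mice 24h_360, 24h_361 and 24h_363. There 1 marker fell (Mybpc3) and 1 rose (Tcap), both named after their values were seen, where 22.4% of all probe sets were lower and 18.3% higher. Whether the 2 lists differ, or differ more in one region than in the other, was not tested.

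Markers of other cells moved at the same times. The share of all probe sets that were higher was 18.3%, 24.6%, 34.1% and 11.1% in infarct tissue at 24 h, 48 h, 1 week and 8 weeks, and 2.59%, 4.14% and 19.6% in remote tissue at the first 3 of these times. All 11 macrophage markers rose at 1 week in infarct tissue (median 2.94) and in remote tissue (median 2.03), where their summed intensity was 42438 to 47397 in infarct, 20863 to 32182 in remote and 4004 to 5305 in sham upper tissue. Of 10 fibroblast markers 8 rose at 1 week in infarct tissue and 8 in remote tissue. Of 9 neutrophil markers 7 rose in infarct tissue at 24 h and 7 at 48 h, and 3 in remote tissue at each of these times. Of 8 endothelial markers 1 rose and 4 fell in infarct tissue at 1 week, and 0 and 2 in remote tissue, where 24.3% (infarct) and 16.1% (remote) of all were lower. Of 4 B cell markers 2 rose in infarct and 3 in remote tissue at that time, and the infarct count is not far from the background.

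Markers of fat cells differed between mice. At 1 week 2 of 6 adipocyte markers rose and 1 fell in infarct tissue, and 1 rose and 1 fell in remote tissue. These counts are near the shares of all probe sets, 34.1% higher and 24.3% lower in infarct and 19.6% and 16.1% in remote tissue. Adipoq, which encodes the fat cell hormone adiponectin, had 390.2, 281.3 and 1571.2 in infarct and 268.5, 161.9 and 1177.9 in remote tissue of mice 1w_662, 1w_663 and 1w_670, against 76.7, 71.8 and 45.8 in sham upper tissue. Mouse 1w_670, which has the lowest enzyme values in both regions, has the highest Adipoq in both, and also the highest Car3 (1569.2 in infarct and 931.8 in remote tissue, against 11.7 to 90.8 in sham upper tissue). Car3 was named after its values were seen. The summed intensity of the 6 adipocyte markers at 1 week was 1747.9 to 4695.6 in infarct and 1609.9 to 3371.9 in remote tissue. Both ranges overlap the 1638.5 to 2061.6 of sham upper tissue. At 8 weeks 3 of 6 adipocyte markers rose in infarct tissue, and Adipoq had 74.9, 835.5 and 3442.0 in mice 8w_311, 8w_326 and 8w_332, against 113.7, 93.9 and 100.2 in sham upper tissue. The order of these 3 mice for Adipoq is the reverse of their order for each of the 6 enzymes. The 6 markers did not move as one. Over the 18 group means of infarct, remote and sham upper tissue, Adipoq (-0.62), Car3 (-0.56) and Retn (-0.27) correlated negatively with the enzyme mean. Lipe (0.65), Fabp4 (0.41) and Lep (0.23) correlated positively with it. The remote array of mouse 4h_389 had 2657.8 for Adipoq while its enzyme median differed from sham upper tissue by 0.06. The part of these cells in the enzymes' levels was not tested.

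**Figure D3:**
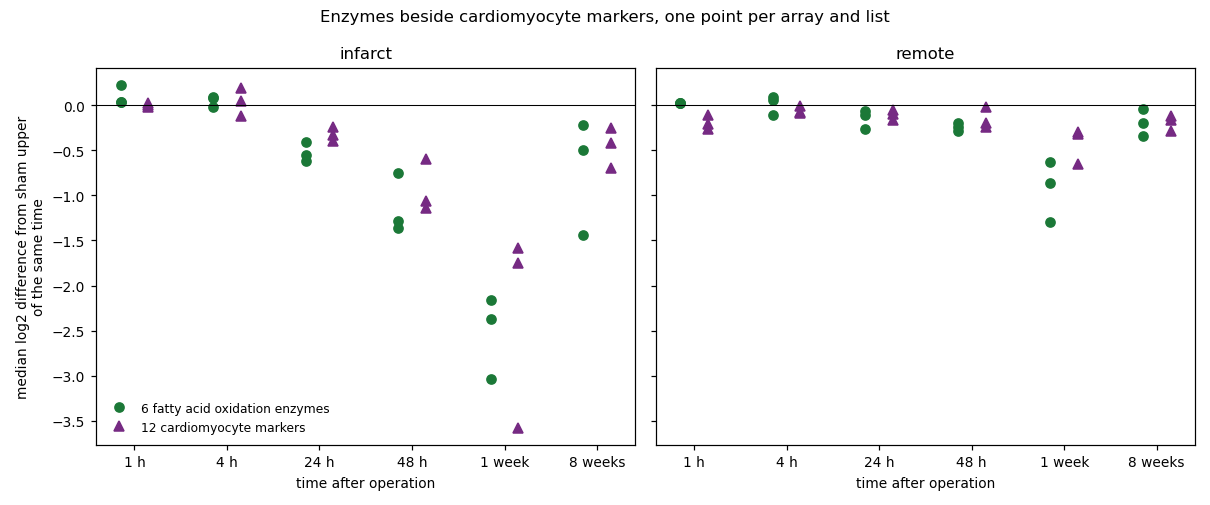
Median log2 difference from the mean of the sham upper arrays of the same time, over the 6 enzymes (circles) and the 12 cardiomyocyte markers (triangles), 1 point per array and list. In remote tissue at 1 week the enzymes lie at -0.63 to -1.30 and the markers at -0.29 to -0.65.

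Most other genes of the pathway also fell. Of 20 other genes of mitochondrial fatty acid oxidation, taken with 1 probe set each from a list of 26, 15 fell in infarct tissue at 24 h, 19 at 48 h, 18 at 1 week and 15 at 8 weeks, with medians of -0.66, -1.26, -2.16 and -0.64. At these times 22.4%, 24.8%, 24.3% and 8.88% of all probe sets were lower. In the remote region 0 were called at 24 h, 1 fell at 48 h, 18 fell at 1 week (median -1.02) and 0 were called at 8 weeks. There 4.07% (48 h) and 16.1% (1 week) of all probe sets were lower, so the count at 48 h is near the background. At 24 h 3.99% and at 8 weeks 0.086% of all were called. The largest falls at 1 week in infarct tissue were those of Etfb (-2.93 ± 0.19) and Echs1 (-2.90 ± 0.19), a subunit of the flavoprotein that takes electrons from the dehydrogenases and the short-chain enoyl-CoA hydratase. The thioesterase Acot13 (-2.83 ± 0.22) and the carnitine acetyltransferase Crat (-2.83 ± 0.19) came next. The second probe sets of Etfb (-0.58) and Crat (-1.99) were also called lower. Slc25a20, which carries acylcarnitines across the inner membrane to Cpt2, averaged 981 ± 223 in infarct and 5968 ± 958 in sham upper tissue. Its remote mean was 2288 ± 714 (-1.40 ± 0.21). Further genes of the fixed panel fell in infarct tissue at 1 week: Etfa (-2.11) and Etfdh (-2.71), which pass the electrons on, the short-chain dehydrogenases Acads (-2.01) and Hadh (-2.21), and Decr1 (-2.46), a reductase for unsaturated chains. A second probe set of Acads did not follow it (-0.06, adjusted p = 0.80).

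One gene of the list went the other way. Cpt1a, the carnitine palmitoyltransferase 1 of liver and many other tissues, was the 1 of the 20 that rose, and it is named because of its values. Of all probe sets, 24.6% (48 h) and 34.1% (1 week) were higher in infarct tissue, and 4.14% and 19.6% in remote tissue. A count of 1 in 20 lies below these shares, except in remote tissue at 48 h, where it is close. It had 1757 ± 304 in infarct and 708 ± 88 in sham upper tissue at 48 h (1.25 ± 0.23, adjusted p = 1.5e-05), and 2489 ± 532 in infarct and 1013 ± 118 in sham upper tissue at 1 week (1.24 ± 0.23, adjusted p = 1.0e-05). It also rose in remote tissue, with 1427 ± 237 in remote and 708 ± 88 in sham upper tissue at 48 h (0.96 ± 0.23), and 1773 ± 389.4 in remote and 1013 ± 118 in sham upper tissue at 1 week (0.77 ± 0.23; SD, n = 3 each). At 8 weeks it was not called in either region (0.24 and -0.07). Cpt1b, its muscle counterpart among the members, was not analysed here.

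Most measured genes of peroxisomal oxidation, which handles very long and branched chains, were lower as well. Of 9 measured genes, 8 fell in infarct tissue at 48 h and 8 at 1 week, and 7 fell in remote tissue at 1 week (medians of -1.08, -1.23 and -0.73). Of all probe sets 24.8%, 24.3% and 16.1% were lower in these comparisons. Phyh, which begins the breakdown of phytanic acid, fell by 2.77 ± 0.19 in infarct tissue at 1 week, and Pex11a, a peroxisome division protein, by 1.68 ± 0.27. Hsd17b4 (-1.29 ± 0.14) and the racemase Amacr (-1.24 ± 0.20) followed. Of 13 genes of fatty acid uptake and activation, 9 fell and 2 rose in infarct tissue at 1 week. There 24.3% of all probe sets were lower and 34.1% higher. The fatty acid binding protein Fabp3 (-2.78 ± 0.37), the lipoprotein receptor Vldlr (-2.32 ± 0.23) and the fatty acid transporter Cd36 (-2.31 ± 0.23) fell. The 2 that rose were acyl-CoA synthetases, Acsl4 (2.30 ± 0.17) and Acsl5 (1.24, named after its values were seen), of which Acsl4 was already 2.05 ± 0.17 higher in infarct tissue at 24 h and 0.56 ± 0.17 higher in remote tissue.

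**Figure D4:**
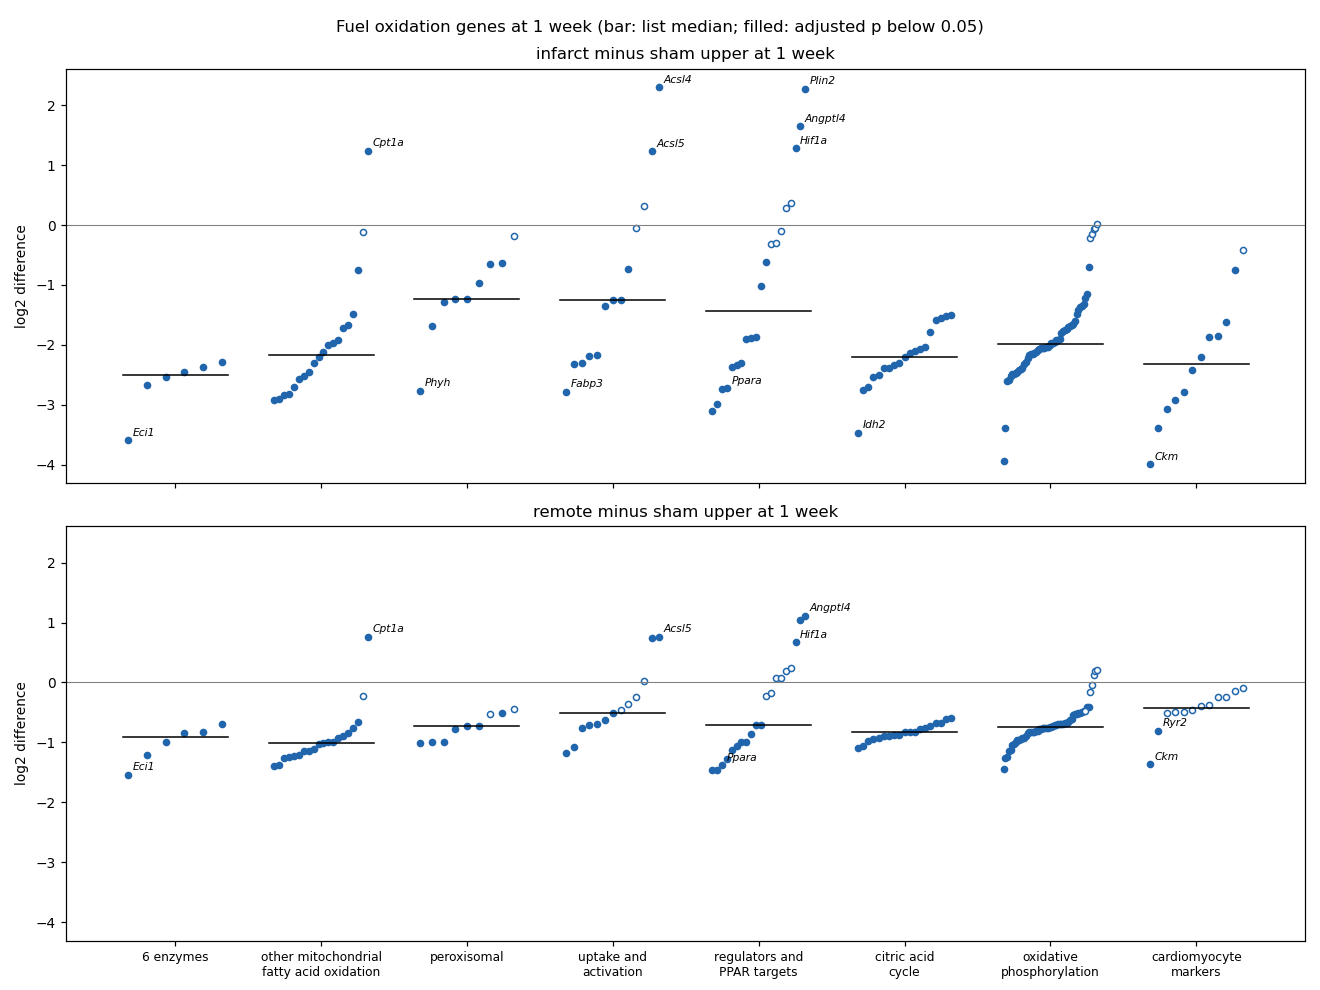
Log2 difference of each measured gene of 8 lists at 1 week, for infarct minus sham upper (above) and remote minus sham upper (below), with bars at list medians and filled points at an adjusted p below 0.05. Cpt1a stands at 1.24 and 0.77, while the medians of the 6 enzymes are -2.50 and -0.92.

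Of 20 regulators and PPAR targets, 12 fell and 3 rose in infarct tissue at 1 week, where 24.3% of all probe sets were lower and 34.1% higher. Ppara had fallen by 1.40 ± 0.21 at 24 h and was 2.72 ± 0.21 lower at 1 week. It was the 1 of the 20 that fell in remote tissue at 24 h (-0.71 ± 0.21, adjusted p = 0.046), where 1.4% of all probe sets were lower, with 780 ± 104 in remote and 1327 ± 257 in sham upper tissue. Ppargc1a fell by 1.51 at 24 h and by 2.33 at 1 week in infarct tissue, and Esrra by 1.30 and 1.90 at these times. The RXR partner Rxrg (-3.10 ± 0.30) and the coactivator Lpin1 (-2.74 ± 0.19) were, with Pdk4 and Ppara, the 4 largest falls of the list at 1 week, while Rxra was not called (0.29). Rxrg and Ppargc1a averaged 12 and 39.1 in infarct tissue at 1 week, near background, where a log2 difference understates the change. Ucp3, a PPAR target in muscle mitochondria, was 2.38 lower in infarct and 1.47 lower in remote tissue at 1 week.

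Some PPAR targets rose early. Pdk4, the kinase that shuts off pyruvate oxidation, had 11068 ± 1074 in infarct, 11810 ± 3160 in remote and 4030 ± 2670 in sham upper tissue at 24 h (1.63 ± 0.36 and 1.71 ± 0.36). The sham upper mean was low at 24 h, since it was 11634 ± 2374 at 1 week and 13196 ± 2165.6 at 8 weeks. At 1 week it was 2.98 ± 0.36 lower in infarct and 1.06 ± 0.36 lower in remote tissue. Angptl4, an inhibitor of lipoprotein lipase, had 1690 ± 923 in infarct, 871 ± 447 in remote and 171 ± 14 in sham upper tissue at 24 h (2.83 ± 0.26 and 1.94 ± 0.26). Of its 3 probe sets, 1 was not called in infarct tissue at 1 week (-0.35), while the other two were higher. Angptl4 was still higher at 1 week (1.65 ± 0.26 in infarct and 1.12 ± 0.26 in remote tissue), together with Plin2, a lipid droplet coat protein (2.27 and 1.04), and Hif1a, a hypoxia factor (1.29 and 0.67). Plin2 and Hif1a were named after their values were seen.

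Genes of the pathways downstream of beta-oxidation moved with the enzymes. All 19 measured citric acid cycle genes fell in infarct tissue at 48 h and at 1 week (medians of -1.17 and -2.20), and all 19 in remote tissue at 1 week (median -0.83). Of 56 genes of oxidative phosphorylation, 52 fell in infarct tissue at 48 h and 51 at 1 week (medians of -1.04 and -1.98), and 50 in remote tissue at 1 week (median -0.74). The remote medians of the 6 enzymes, the other fatty acid oxidation genes, the citric acid cycle and oxidative phosphorylation at 1 week, -0.92, -1.02, -0.83 and -0.74, lie close to each other, and all lie below the -0.42 of the cardiomyocyte markers. Whether these lists differ was not tested.

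Over the 18 group means of infarct, remote and sham upper tissue, each of the 6 enzymes correlated with each other one at 0.908 (Acadm with Cpt2) to 0.974 (Hadhb with Eci1) on the log2 scale. The points share arrays and tissue make-up, so this is a description. The 8 other genes most like the mean of the 6 enzymes in this measure were Cs (0.997), Hopx (0.994), Ndufv2 (0.993), Ndufs3 (0.992), Cox7a2 (0.992), Ndufb2 (0.991), Uqcr11 (0.991) and Lpl (0.991). Cs is citrate synthase, Hopx a homeodomain protein of cardiomyocytes, Lpl the lipase that frees fatty acids from lipoproteins, and the other 5 encode respiratory chain subunits. At 1 week in infarct tissue they had log2 differences of -1.80 (Ndufv2) to -3.61 (Hopx).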

How the data were processed

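The deposited values are intensities on a linear scale, 1 per probe set and array, in 1 table of all 59 arrays. How the authors summarised and scaled them is not given in the sources used here. With the lowest and highest 2% of values left out, every array had a mean of 499.2 to 499.9, so the arrays had been scaled to a common level. The number of arrays, not a read depth, limits the precision, and the median SE of a change between infarct and sham upper tissue was 0.182.

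Of 12488 probe sets, 10833 with 1 gene in the array's annotation were kept, and the 8140 (of 6672 genes) with an intensity of 108.2 or more, the 40th percentile over all arrays, on 3 or more arrays were tested. Values were taken as log2 of the intensity plus 45.6, which is 0.25 times the median and shrinks changes near background. R 4.3.3 with limma 3.58.1 fitted 23 groups over 59 arrays with the title number as a random block (consensus correlation 0.137, 36 residual and 4.51 prior degrees of freedom). P-values were adjusted by Benjamini-Hochberg over all probe sets. Over 17 pairs of infarct and remote tissue with 1 number, deviations from the group means correlated at -0.106 to 0.412 (median 0.036, 7 above 0.1). Nothing says that arrays come from separate litters or operations, so p-values measure the spread between these pieces of tissue. No 2 arrays were identical (highest correlation 0.986).

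For lists, the probe set with the highest mean stood for a gene. Genes named are the members, up to 4 genes per pathway list with the largest called change in infarct tissue at 1 week and up to 2 in remote tissue at 24 h, a fixed panel, and the 8 most alike in profile. Members, lists and tests were chosen with earlier results of these data known. Alternatives were 2 other offsets, quantile normalization, no filter, 1 probe set per gene, array weights, an intensity trend, no block or a fixed block, 2-group fits, other sham controls and each array left out. Scripts were tested on simulated data. Figures were drawn with Python and matplotlib. Proteins were not compared, and no other build's coordinates were used.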

Additional observations from a re-analysis of the deposited data

Results flagged for a closer look

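Effects that differed between 2 successive times, by the test of the difference itself, are listed here as log2 values. In infarct tissue against sham, Eci1 moved by -0.94 between 4 h and 24 h, and Cpt2 by -0.72 between 24 h and 48 h. Between 48 h and 1 week the effect moved by -1.66 for Acadm, -1.32 for Acaa2, -1.27 for Acadl, -0.79 for Cpt2, -1.57 for Hadhb and -1.77 for Eci1. Between 1 week and 8 weeks it moved back by 2.14 for Acadm, 1.44 for Acaa2, 1.89 for Acadl, 1.59 for Cpt2, 2.06 for Hadhb and 2.26 for Eci1. In remote tissue against sham, the effect moved by -0.98 for Acaa2 and -1.36 for Eci1 between 48 h and 1 week. Between 1 week and 8 weeks it moved back by 0.92 for Acaa2, 0.75 for Cpt2 and 1.09 for Eci1. No search for single arrays far from the others was run. The groups have 3 arrays each, and those of the lower sham region have 1.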

How the results depend on the processing

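Of 1057 single enzyme changes recomputed under another setting, 978 kept their call and direction, 79 lost the call and 0 turned. Only changes called in the main fit were taken, so calls gained elsewhere cannot appear in this total. Of the 1057, 474 come from fits that leave out 1 array and share most data with the main fit. At 48 h and 1 week the counts for infarct against sham stayed at 6 or more under every setting run, and counts below are of the 6 tested enzymes. For infarct against sham at 8 weeks (4 reported) the count was 1 with array weights, 0 with only the 2 groups in the fit, and 2 to 6 with single arrays left out. For infarct against remote at 8 weeks (2 reported) it was 1 with no replicate block, 0 with array weights, 0 with 2 groups, and 0 to 6 with arrays left out. The weights of infarct mice 8w_311, 8w_326 and 8w_332 were 0.586, 0.0104 and 0.261, so the infarct values of 8 weeks then rest little on the second of them. Array weights gave 1 (higher) for infarct against sham at 1 h, 5 for infarct against sham and 4 for infarct against remote at 24 h, 5 for the step from 4 h to 24 h, and 5 for the remote step from 1 week to 8 weeks. For the infarct step from 24 h to 48 h (1 reported) the count was 0 with an offset of 0.05 times the median, 0 with no filter, 0 with no replicate block, 4 with array weights, and 0 to 3 with arrays left out. For remote against sham at 48 h (1 reported) it was 0 with 2 groups and 0 against the sham lower array alone, which gave 1 for infarct against sham at 24 h. The remote step from 48 h to 1 week (2 reported) had 1 after quantile normalization and 1 to 2 with arrays left out. With arrays left out, the remote step from 1 week to 8 weeks had 0 to 3, the infarct step from 4 h to 24 h 0 to 1, remote against sham at 48 h 0 to 1, and infarct against remote at 24 h 1 to 2. The fixed replicate block changed none of the 16 single enzyme calls it could test. The fits of 2 groups hold fewer arrays, and the cause of the other shifts was not tested.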
